A study of Mus musculus with 19 samples.

Results

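The 10 Toll-like receptor genes Tlr1, Tlr2, Tlr3, Tlr4, Tlr5, Tlr6, Tlr7, Tlr8, Tlr9 and Tlr13 were described in the dorsal root ganglia of mice, where the cell bodies of sensory neurons lie next to the spinal cord. They were taken by name from a deposited table of 36682 genes, and 10 of 10 were found and passed the filter on low counts that left 22778 genes for testing. The ganglia L3 to L5 came from 19 male mice, all homozygous for the MaFIA transgene (macrophage Fas-induced apoptosis), in which the Csf1r promoter drives an inducible Fas suicide protein in macrophages and other myeloid cells. AP20187 is the drug that joins the Fas proteins and so triggers death of the cells that carry them. Mice with destabilization of the medial meniscus (DMM, a surgical model of knee osteoarthritis) received AP20187 (n = 5, mice 58 to 62) or vehicle (n = 5, mice 32, 33, 34, 63 and 64). Naive mice received AP20187 (n = 4, mice 1, 3, 4 and 5) or vehicle (n = 5, mice 1 to 5). Both agents were given as 5 daily intraperitoneal injections, and DMM ganglia were collected 8 weeks after the operation. All groups, controls included, carried the transgene, so no group shows the drug without it.

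Toll-like receptors are membrane proteins of the innate immune system that bind conserved parts of microbes, and some also molecules released from damaged tissue. Those at the cell surface mostly bind lipids and proteins, while those in endosomes bind nucleic acids. Most signal through the adaptor Myd88 to NF-kappa-B. Tlr3 uses the adaptor Ticam1 instead, which leads to type I interferon, and Tlr4 uses both. In the ganglion they are known from macrophages and other immune cells, from satellite glia and from some sensory neurons. Since these were bulk samples, fewer cells of a type and less RNA per cell cannot be told apart.

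Levels are given as CPM, the count scaled to the size of the library after TMM normalization (a correction for differences in RNA make-up), which compares 1 gene between libraries. For levels between genes the deposited FPKM was used, which is scaled to gene length. Libraries held 60984830 to 74691396 counts and every member was counted in every library, down to 0.476 CPM for Tlr9. Sensory neuron markers were detected in all groups (11 of 11), with summed levels of 7440 to 13400 CPM in naive mice with vehicle, 4490 to 12400 CPM in DMM mice with vehicle, 1870 to 9320 CPM in naive mice with AP20187 and 1500 to 5890 CPM in DMM mice with AP20187. Within the DMM vehicle group, mice 63 and 64 stood above mice 32 to 34 for several members, most of all mouse 64, and the log2 differences of the members called in DMM are given with these 2 mice and with the other 3 as the only controls. Markers of skeletal muscle summed to 1470 to 2220 CPM in the 4 naive libraries with AP20187 and to 1710 CPM in DMM vehicle mouse 32, and to at most 403 CPM in every other library. No label says how the mouse numbers relate to the course of the experiment.

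2 kinds of sequence bear on how the counts can be read. Tlr1 and Tlr6 are neighbouring genes on chromosome 5 whose proteins pair with Tlr2, and their transcripts share long identical stretches. Of the 3332 windows of 50 bases in Tlr1 transcripts, 454 (13.6%) were also found in Tlr6, which is 12.3% of the 3702 windows of Tlr6. The longest run that the annotated transcripts share is 229 bases, all coding, on the minus strand of GRCm38, at chr5:64925537-64925765 in Tlr1 and chr5:64953828-64954056 in Tlr6. It is shown because a read lying wholly within it matches both genes, so that the counts of Tlr1 and Tlr6 may not be fully separate. How such reads were assigned was not examined.
Tlr1 and Tlr6: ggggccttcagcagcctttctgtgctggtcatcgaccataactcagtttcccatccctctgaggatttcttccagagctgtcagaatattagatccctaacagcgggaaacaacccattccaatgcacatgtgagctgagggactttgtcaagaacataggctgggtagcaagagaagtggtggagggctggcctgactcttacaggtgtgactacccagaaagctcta

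The 250 bases before the start site were taken from RefSeq (build GRCm38.p6) for 8 of the 10 genes, with 2 start sites each for Tlr1 and Tlr6. Tlr4 and Tlr7 had no entry. Both strands were searched for GAGGAA and AGGAAGT, forms of the ETS core that the myeloid factor PU.1 binds, for the paired core of the interferon response element and for the consensus NF-kappa-B decamer, both given by name only. The sequences below are those of 3 genes that rose with AP20187 and of Tlr9, which fell in DMM mice, and capitals mark the matches.
Tlr1, chr5:64933559-64933808, minus strand: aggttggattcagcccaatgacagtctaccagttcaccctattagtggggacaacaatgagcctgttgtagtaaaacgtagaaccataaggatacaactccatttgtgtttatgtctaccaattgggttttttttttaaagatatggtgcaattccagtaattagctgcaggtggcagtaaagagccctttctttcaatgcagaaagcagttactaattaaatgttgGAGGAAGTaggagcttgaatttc
Tlr6, chr5:64959167-64959416, minus strand: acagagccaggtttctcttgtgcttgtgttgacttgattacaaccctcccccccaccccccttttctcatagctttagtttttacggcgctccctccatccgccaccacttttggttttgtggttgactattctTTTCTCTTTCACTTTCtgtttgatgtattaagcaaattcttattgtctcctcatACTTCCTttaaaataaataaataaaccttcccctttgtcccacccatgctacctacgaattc
Tlr8, chrX:167264330-167264579, minus strand: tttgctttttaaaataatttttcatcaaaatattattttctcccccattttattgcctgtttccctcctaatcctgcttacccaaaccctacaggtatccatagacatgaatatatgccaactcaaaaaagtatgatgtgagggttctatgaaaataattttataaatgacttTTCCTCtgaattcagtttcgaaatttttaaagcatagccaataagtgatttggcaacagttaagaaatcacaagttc
Tlr9, chr9:106222348-106222597, plus strand: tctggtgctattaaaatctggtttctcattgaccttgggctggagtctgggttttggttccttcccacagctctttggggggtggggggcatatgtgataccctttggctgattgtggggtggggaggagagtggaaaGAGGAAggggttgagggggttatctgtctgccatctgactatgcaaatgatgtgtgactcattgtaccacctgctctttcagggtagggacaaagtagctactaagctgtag

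In the Tlr1 sequence shown, the motifs GAGGAA and AGGAAGT overlap, the first starting 23 bases before that start site. The Tlr6 sequence shown holds AGGAAGT on the opposite strand 62 bases before its start and 2 overlapping copies of the interferon response core on that strand. The other start site of Tlr1 and that of Tlr6 held no match to any motif searched. GAGGAA lies 77 bases before the start of Tlr8, on the opposite strand, 112 bases before that of Tlr9 and 83 bases before that of Tlr13. The motif thus occurred in 4 of 10 member promoters, against 23.3% of all 32851 promoters, and of these genes Tlr1 and Tlr8 rose, Tlr9 fell in DMM mice and Tlr13 was not called. The promoters of Tlr2 and Tlr6, which rose, did not hold it. AGGAAGT occurred in 2 of 10, against 7.69% of all, the interferon response core in 1 of 10, against 2.98%, and the NF-kappa-B decamer in 0 of 10, against 0.14%. A match is a string of letters only.

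**Figure D1:**
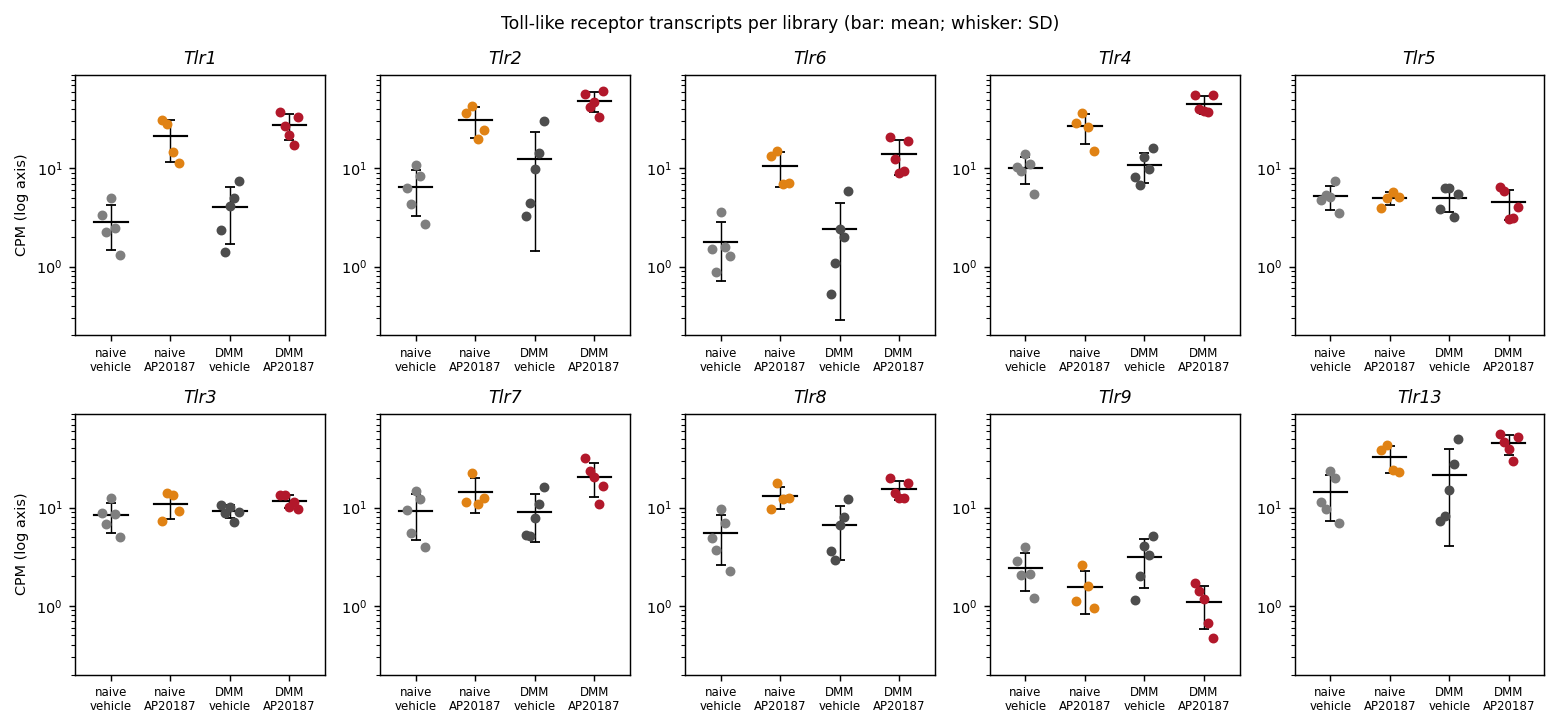
CPM of each Toll-like receptor gene on a log axis, 1 point per mouse, in the 4 groups. The bar is the mean and the whisker the SD. Tlr1, Tlr2, Tlr6 and Tlr4 lie above the vehicle libraries of the same surgery group in all libraries with AP20187, while Tlr5 and Tlr3 stay near 1 level, and Tlr9 is lowest in DMM mice with AP20187.

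With AP20187 the surface receptors for lipids rose, in DMM and in naive mice alike. In DMM mice 6 of the 10 genes rose (Tlr1, Tlr2, Tlr4, Tlr6, Tlr7 and Tlr8) and 1 fell (Tlr9), at an adjusted p under 0.05 by the edgeR quasi-likelihood test with Benjamini-Hochberg adjustment over all genes. The background in that comparison was 23.8% of all tested genes in either direction, 11.3% higher and 12.4% lower. In naive mice 5 of the 10 rose (Tlr1, Tlr2, Tlr4, Tlr6 and Tlr8) and none fell, against a background of 11.2%, with 8.61% higher and 2.57% lower. With mice 63 and 64 as the only DMM controls, 3 were called (Tlr1 and Tlr4 higher, Tlr9 lower), against 4.73% of all genes tested there. With mice 32 to 34 as the only ones, 7 were called, all higher, against 36.3% of all genes in either direction and 17.5% higher. The median log2 fold change of the 10 genes was 1.2 in DMM and 1.21 in naive mice, beside medians of -0.1 and -0.07 over all genes. The libraries with AP20187 lay wholly above those with vehicle for 5 of 10 genes in DMM mice, against 8.71% of all genes, and for 4 of 10 in naive mice, against 9.39%.

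Tlr2 (ENSMUSG00000027995, chromosome 3, 83743579 to 83749074, minus strand, build GRCm39 per the submitters' processing notes, as for all gene positions here) is the shared partner of the receptors for bacterial lipopeptides. In DMM mice it was at 57.2, 41.9, 47.8, 33.5 and 61.3 CPM with AP20187 (mice 58 to 62) and at 3.30, 4.48, 9.73, 14.2 and 30.6 CPM with vehicle (mice 32, 33, 34, 63 and 64). The groups did not overlap, but vehicle mouse 64, at 30.6 CPM, lay close under the lowest AP20187 library, at 33.5 CPM. Tlr2 rose by 1.96 on the log2 scale (SE 0.49, adjusted p = 0.0093 by edgeR). With vehicle mice 63 and 64 as the only controls it was 1.11, adjusted p = 0.193, and the call was lost, while with mice 32 to 34 it was 3.05, adjusted p = 0.000322. In naive mice Tlr2 was at 36.3, 43.3, 19.9 and 24.3 CPM with AP20187 (mice 1, 3, 4 and 5) and at 6.23, 4.29, 10.8, 8.42 and 2.74 CPM with vehicle (mice 1 to 5). These groups did not overlap either, and the rise was 2.25 on the log2 scale (SE 0.51, adjusted p = 0.00951 by edgeR).

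Tlr1 (ENSMUSG00000044827, chromosome 5, 65082022 to 65090904, minus strand) joins Tlr2 to bind triacylated lipopeptides. It was at 37.6, 26.8, 22, 17.4 and 33.4 CPM in DMM mice with AP20187 and at 2.33, 1.42, 4.09, 5.02 and 7.48 CPM with vehicle. Naive mice had 30.7, 28.4, 14.6 and 11.3 CPM with AP20187 and 3.32, 2.25, 5.01, 2.45 and 1.32 CPM with vehicle. Every library with AP20187 was above every library with vehicle. Its rise was the largest of the 10 genes in both, 2.76 on the log2 scale in DMM (SE 0.44, adjusted p = 0.000509 by edgeR) and 2.89 in naive mice (SE 0.45, adjusted p = 0.00092). In DMM it was 2.15 (adjusted p = 0.0285) with mice 63 and 64 and 3.39 (adjusted p = 0.000248) with mice 32 to 34 as the only controls.

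Tlr6 (ENSMUSG00000051498, chromosome 5, 65109374 to 65117440, minus strand) joins Tlr2 to bind diacylated lipopeptides. In DMM mice it was at 20.9, 12.4, 8.93, 9.48 and 18.8 CPM with AP20187 and at 0.524, 1.09, 2.41, 2.01 and 5.89 CPM with vehicle. Its naive levels were 13.4, 14.9, 6.91 and 7.16 CPM with AP20187 and 1.51, 0.886, 3.59, 1.57 and 1.27 CPM with vehicle. The groups stood apart in both, with mouse 64 and naive vehicle mouse 3 the highest of their groups. Tlr6 rose by 2.56 on the log2 scale in DMM (SE 0.53, adjusted p = 0.00309 by edgeR) and by 2.58 in naive mice (SE 0.54, adjusted p = 0.00611). With vehicle mice 63 and 64 alone as DMM controls it was 1.82, adjusted p = 0.0846, and with mice 32 to 34 alone 3.39, adjusted p = 0.000552. Part of the reads of Tlr1 and Tlr6 may be shared through the run shown above, and what this adds to their likeness was not tested.

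Tlr4 (ENSMUSG00000039005, chromosome 4, 66745821 to 66848521, plus strand) is the receptor for lipopolysaccharide. In DMM mice it was at 55.2, 40.3, 38.0, 37.3 and 56.2 CPM with AP20187 and at 8.17, 6.72, 12.9, 9.93 and 16.0 CPM with vehicle. Among naive mice it stood at 29.2, 36.9, 26.2 and 15 CPM with AP20187 and at 10.2, 9.42, 14.1, 11.1 and 5.49 CPM with vehicle. Within DMM and within naive mice the treated and untreated libraries did not overlap, though naive AP20187 mouse 5, at 15 CPM, was close to the highest naive vehicle library and below DMM vehicle mouse 64. On the log2 scale Tlr4 rose by 2.08 in DMM (SE 0.28, adjusted p = 0.000158 by edgeR) and by 1.42 in naive mice (SE 0.29, adjusted p = 0.00523). Against mice 63 and 64 alone the DMM value was 1.81 (adjusted p = 0.0169), and against mice 32 to 34 alone 2.29 (adjusted p = 0.00024). The entry overlaps a long non-coding entry without a symbol on the same strand (ENSMUSG00000121059), which held 103 to 845 counts in a library, so reads in the overlap are uncertain.

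Tlr5 (ENSMUSG00000079164, chromosome 1, 182782353 to 182804010, plus strand), the receptor for flagellin, was the surface receptor with no call. It was at 6.43, 5.82, 3.04, 3.15 and 4.08 CPM in DMM mice with AP20187 and at 3.84, 6.25, 6.33, 3.16 and 5.53 CPM with vehicle. Naive mice lay between 3.51 and 7.44 CPM, and all 4 groups overlapped. Its log2 fold change was -0.16 in DMM mice (2 SE interval -0.68 to 0.37, adjusted p = 0.716 by edgeR) and -0.08 in naive mice (interval -0.64 to 0.48, adjusted p = 0.872). These intervals lie wholly under the fitted log2 values of Tlr1, Tlr2, Tlr4 and Tlr6.

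**Figure D2:**
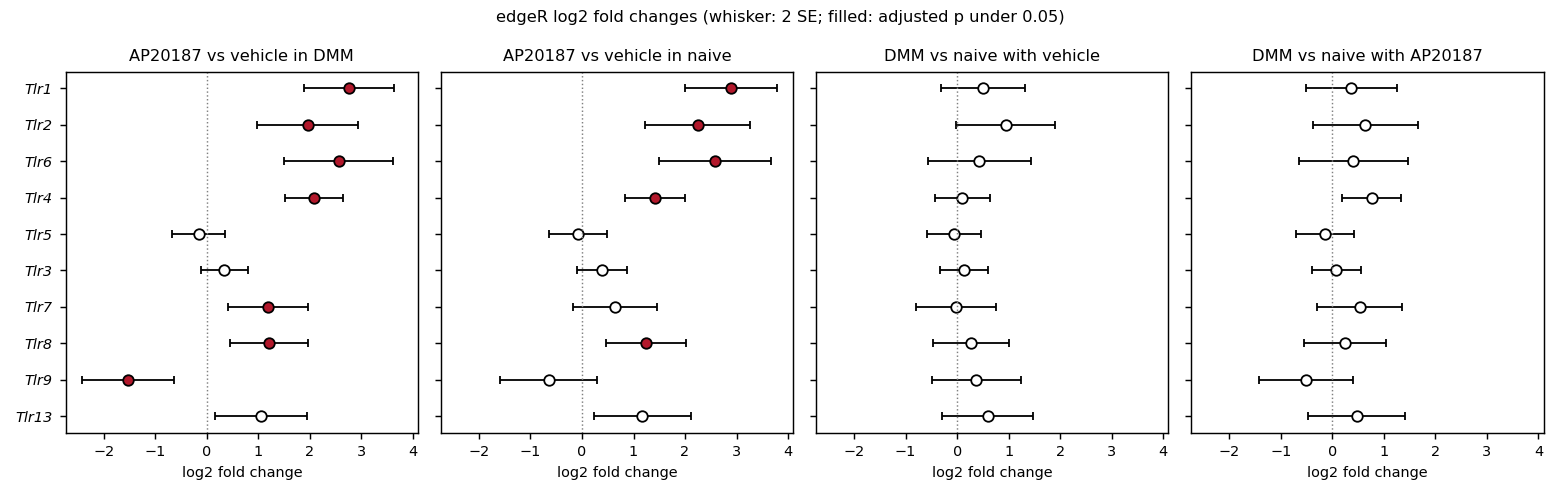
Log2 fold change of each Toll-like receptor gene in the 4 pairwise comparisons, with whiskers of 2 SE and filled points for an adjusted p under 0.05 (edgeR). The lipid receptors lie between 1.42 and 2.89 in both comparisons of AP20187 with vehicle, and no point is filled in either comparison of DMM with naive mice.

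Of the 5 endosomal receptors, 2 rose (Tlr7 and Tlr8) and 1 fell (Tlr9) in DMM mice, and 1 rose (Tlr8) in naive mice. Tlr8 (ENSMUSG00000040522, X chromosome, 166025692 to 166047295, minus strand) is known in humans as a sensor of RNA breakdown products. It was at 20.1, 14.2, 12.4, 12.5 and 17.8 CPM in DMM mice with AP20187 and at 3.58, 2.91, 6.70, 7.96 and 12.1 CPM with vehicle, groups that just failed to meet. Naive libraries were at 9.68, 17.6, 12.1 and 12.6 CPM with AP20187 and at 4.92, 3.72, 9.71, 6.89 and 2.29 CPM with vehicle, where the lowest treated and the highest untreated library overlapped. Tlr8 rose by 1.21 on the log2 scale in DMM (SE 0.38, adjusted p = 0.0281 by edgeR) and by 1.24 in naive mice (SE 0.39, adjusted p = 0.0494). The call was lost under 6 of 19 alternatives in DMM and 11 of 17 in naive mice, among them mice 63 and 64 as the only DMM controls (0.63, adjusted p = 0.451) and the omission of naive AP20187 mouse 3 (1.08, adjusted p = 0.148). With mice 32 to 34 as the only DMM controls Tlr8 passed (1.81, adjusted p = 0.00356).

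Tlr7 (ENSMUSG00000044583, X chromosome, 166087925 to 166113554, minus strand), which lies beside Tlr8 and binds single-stranded RNA, was at 31.6, 23.7, 20.5, 10.8 and 16.5 CPM in DMM mice with AP20187 and at 5.21, 5.09, 7.88, 11 and 16.2 CPM with vehicle. These groups overlapped, since AP20187 mouse 61 lay below vehicle mice 63 and 64. Tlr7 rose by 1.19 on the log2 scale (SE 0.39, adjusted p = 0.0353 by edgeR), a call lost under 8 of 19 alternatives, such as without AP20187 mouse 58 (0.98, adjusted p = 0.103) and with mice 63 and 64 as the only controls (0.63, adjusted p = 0.531). With mice 32 to 34 as the only controls it was 1.77, adjusted p = 0.00544. Naive libraries were at 11.5, 22.5, 10.8 and 12.6 CPM with AP20187 and at 9.36, 5.57, 14.9, 12.2 and 3.93 CPM with vehicle, and the value of 0.64 (SE 0.41, adjusted p = 0.302) did not pass.

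Tlr13 (ENSMUSG00000033777, X chromosome, 105186810 to 105204099, plus strand) binds bacterial ribosomal RNA. In DMM mice it was at 55.6, 47.0, 39.5, 29.9 and 52.8 CPM with AP20187 and at 7.31, 8.30, 15.2, 28.1 and 49.5 CPM with vehicle. Mouse 64 thus had as much Tlr13 as the treated mice, and the groups overlapped through it alone. Its log2 difference of 1.05 (SE 0.45, adjusted p = 0.0921 by edgeR) did not pass. It passed under 5 of 19 alternatives, which were DESeq2 (adjusted p = 0.0461), limma on FPKM (adjusted p = 0.0339 and 0.0365), the omission of mouse 64 (1.61, adjusted p = 0.0068) and mice 32 to 34 as the only controls (2.13, adjusted p = 0.00124). With mice 63 and 64 as the only controls it was 0.22, adjusted p = 0.845. In naive mice Tlr13 was at 39.0, 43.3, 24.4 and 23.2 CPM with AP20187 and at 11.5, 9.69, 23.6, 20.2 and 6.91 CPM with vehicle, and the difference of 1.17 (log2, SE 0.47, adjusted p = 0.109) did not pass. It passed when only the naive groups were fitted, without a block (1.21, adjusted p = 0.0468) or with one.

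Tlr9 (ENSMUSG00000045322, chromosome 9, 106099797 to 106104082, plus strand) binds unmethylated CpG DNA and was the member that fell. In DMM mice it was at 1.71, 1.42, 1.18, 0.674 and 0.476 CPM with AP20187 and at 1.14, 2.01, 4.09, 3.29 and 5.20 CPM with vehicle. Vehicle mouse 32 lay within the treated range and the other 4 vehicle mice above it. Tlr9 fell by 1.53 on the log2 scale (SE 0.45, adjusted p = 0.0212 by edgeR), a call lost under 3 of 19 alternatives. These were the omission of AP20187 mouse 62 (-1.34, adjusted p = 0.0511), only the groups compared (-1.46, adjusted p = 0.0529) and mice 32 to 34 as the only controls (-1.14, adjusted p = 0.0791), and with mice 63 and 64 the value of -1.93 passed (adjusted p = 0.0441). Naive libraries were at 1.12, 2.58, 1.58 and 0.940 CPM with AP20187 and at 2.86, 2.07, 3.93, 2.13 and 1.19 CPM with vehicle, and the value of -0.65 (SE 0.47, adjusted p = 0.365) did not pass. Of the B cell markers, 6 of 7 fell in DMM mice, where Tlr9 fell, against 12.4% of all genes. In naive mice, where Tlr9 was not called, 6 of 7 fell, against 2.57% of all genes. Without naive AP20187 mouse 1 it was 3 of 7, against 0.903%. Their summed level was 3.76 to 15.8 CPM in DMM mice with AP20187, 12.8 to 165 with vehicle, 4.60 to 10.2 in naive mice with AP20187 and 25.2 to 75.5 with vehicle, and their part in the result was not tested.

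Tlr3 (ENSMUSG00000031639, chromosome 8, 45848702 to 45864117, minus strand), the receptor for double-stranded RNA, had the smallest differences with the drug among the endosomal receptors. It was at 13.4, 13.3, 10.1, 11.4 and 9.78 CPM in DMM mice with AP20187 and at 10.7, 8.82, 10.1, 7.09 and 9.04 CPM with vehicle. In naive mice it ranged from 7.23 to 14.0 CPM with AP20187 and from 5.08 to 12.5 CPM with vehicle, and the groups overlapped. On the log2 scale the difference was 0.34 in DMM mice (2 SE interval -0.11 to 0.8, adjusted p = 0.293 by edgeR) and 0.39 in naive mice (interval -0.09 to 0.87, adjusted p = 0.28).

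The 2 Toll-like receptor genes outside the set were scarce. Tlr11, which binds profilin of protozoa, was at 0.14 ± 0.129 CPM (SD, n = 5) in DMM mice with AP20187 and 0.678 ± 0.0756 CPM with vehicle, and it fell by 2.26 on the log2 scale (SE 0.72, adjusted p = 0.0312 by edgeR). That call was lost without AP20187 mouse 58, 60 or 62, without vehicle mouse 32, 33 or 63, with mice 63 and 64 as the only controls, with only the groups compared and on log2(FPKM + 1). Tlr12, its partner, had a value of -0.62 (SE 0.42, adjusted p = 0.31). In naive mice neither passed.

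Surgery gave no call. Between DMM and naive mice with vehicle, 0 of 10 members passed, against a background of 0.0%; at an unadjusted p under 0.05 there were 377 genes and 0 members, and DESeq2 and limma on FPKM called 0 members as well. The value farthest from 0 was that of Tlr2, 0.94 (2 SE interval -0.02 to 1.89, adjusted p = 1 by edgeR), and with mice 63 and 64 as the only DMM mice it was 1.83, adjusted p = 0.0485. Between DMM and naive mice with AP20187, 0 of 10 passed, against 0.702% of all genes, with 1 member at an unadjusted p under 0.05, and DESeq2 gave 0 as well. There Tlr4 had the value farthest from 0, 0.76 (SE 0.29, adjusted p = 0.206), with its lowest DMM library, 37.3 CPM, just above its highest naive library, 36.9 CPM; it was the 1 member of 10 without overlap, against 3.46% of all genes lying above. On log2(FPKM + 1) with limma it was 0.82, adjusted p = 0.0339. Skeletal muscle markers had a list median of -4.66 in this comparison with the drug, with 0 of 5 called, and their part in it was not tested.

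The drug effects in DMM and in naive mice were also compared directly. No member passed the interaction test, against 0.114% of all genes, 0 members were under an unadjusted p of 0.05, and DESeq2 and limma on FPKM called 0. The interaction was 0.66 for Tlr4 (2 SE interval -0.14 to 1.46), -0.88 for Tlr9 (-2.15 to 0.39) and 0.55 for Tlr7 (-0.58 to 1.68). So for Tlr7 and Tlr9, called in DMM mice only, a difference between the effects in the operated and the naive mice was not shown.

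Per length, the order of the receptors was not the same with and without the drug. In naive mice with vehicle the order by FPKM was Tlr13, Tlr7, Tlr2, Tlr4, Tlr3, Tlr8, Tlr5, Tlr1, Tlr9 and Tlr6, from 3.28 ± 1.68 (SD, n = 5) for Tlr13 to 0.463 ± 0.289 for Tlr6. In DMM mice with vehicle it was Tlr13, Tlr2, Tlr7, Tlr4, Tlr8, Tlr3, Tlr1, Tlr5, Tlr9 and Tlr6. In both groups with AP20187 Tlr2 led, followed by Tlr13, Tlr1 and Tlr4, with 15.6 ± 3.42 FPKM for Tlr2 in DMM (n = 5) and 8.75 ± 2.69 in naive mice (n = 4). Neighbours in these orders overlapped over mice, except Tlr3 over Tlr5 and Tlr5 over Tlr9 in the AP20187 groups. Within single libraries, Tlr2 was above Tlr13 in 5 of 5 DMM and 4 of 4 naive mice with AP20187. Tlr13 was above the next gene in 5 of 5 mice of each vehicle group. Tlr1 was above Tlr4 in 2 of 5 DMM and 3 of 4 naive mice with AP20187, so their order was not settled.

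**Figure D3:**
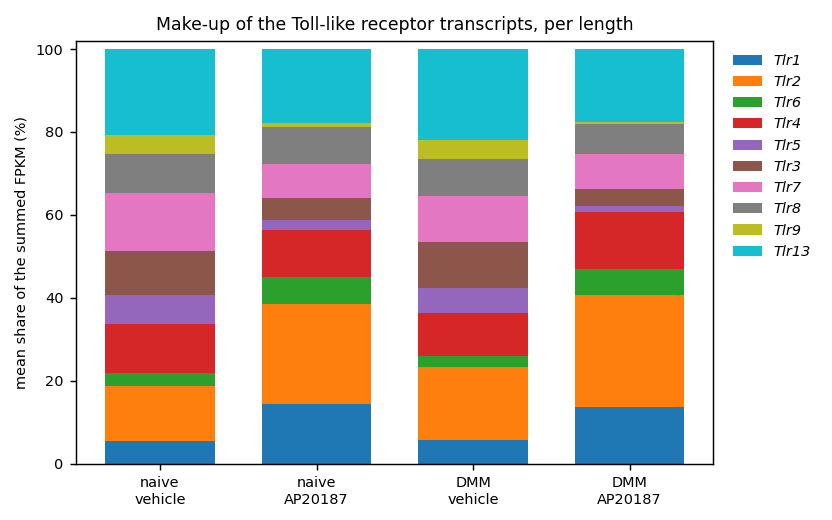
Mean share of each gene in the summed FPKM of the 10 Toll-like receptor genes, as stacked bars that reach 100%, for the 4 groups. The shares of Tlr1, Tlr2 and Tlr6 are wider with AP20187, and those of Tlr9, Tlr5 and Tlr3 are narrower.

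The 10 genes together summed to 57.7 ± 14.0 FPKM (SD, n = 5) in DMM mice with AP20187 and 20.9 ± 13.1 FPKM (n = 5) with vehicle. In naive mice the sum was 36.2 ± 9.26 FPKM (n = 4) with AP20187 and 15.4 ± 6.79 FPKM (n = 5) with vehicle. Tlr1 made up 12.5% to 14.7% of the sum in DMM mice with AP20187 and 3.90% to 6.59% with vehicle. Tlr9 made up 0.195% to 0.706% with AP20187 and 3.11% to 6.17% with vehicle in DMM mice, and 0.678% to 1.35% against 3.18% to 5.47% in naive mice. The share of Tlr9 was thus lower in every treated mouse of both kinds, although its own level overlapped between the groups. A share falls when other members rise, so this is no separate measure of Tlr9. Tlr13 kept similar shares, with means of 17.6%, 22%, 17.7% and 20.8% in DMM with AP20187, DMM with vehicle, naive with AP20187 and naive with vehicle.

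**Figure D4:**
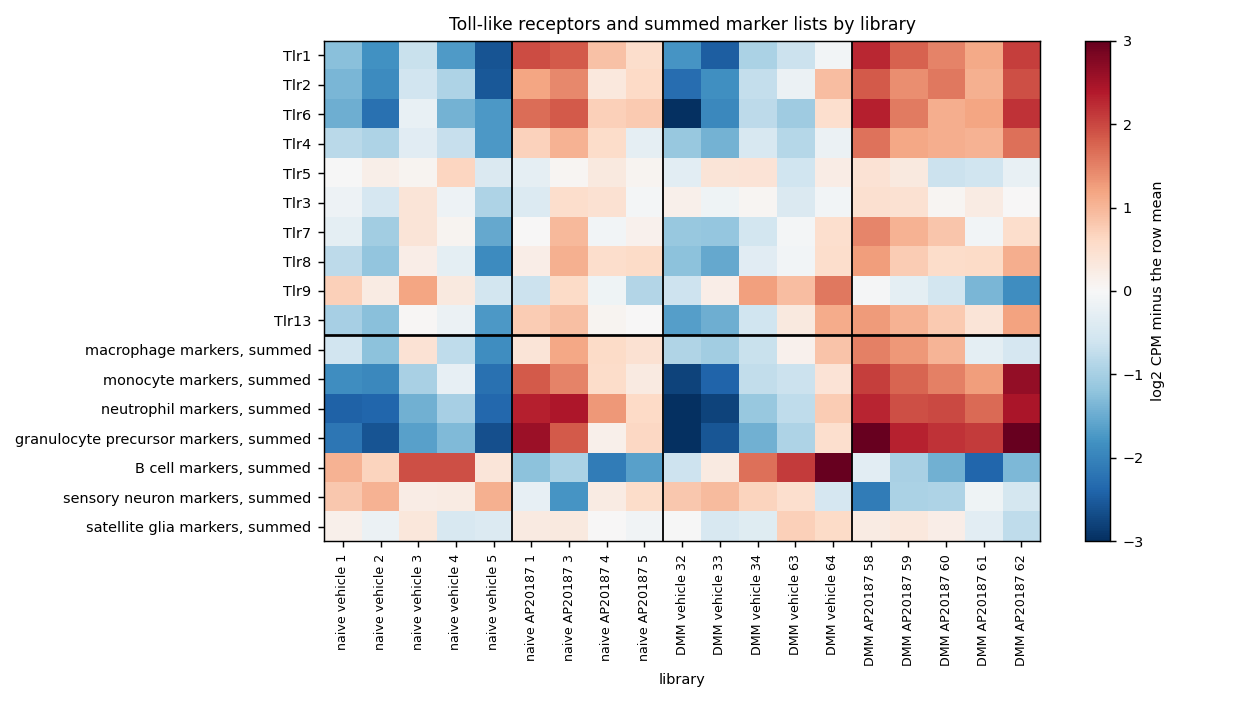
Log2 CPM minus the row mean, for the Toll-like receptor genes above the line and the summed marker lists below it, with 1 column per library. Red is above the mean and blue below, the scale ends at 3, and vehicle mouse 64 of the DMM group is red for Tlr2, Tlr13 and Tlr9 and for the B cell markers.

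The genes whose log2 CPM was most alike over the 19 libraries were sought for the 4 lipid receptors, as a description with the group differences included. For Tlr2 they were Aoah (Pearson r 0.992), an enzyme that inactivates lipopolysaccharide, Nckap1l (0.991), a regulator of the actin skeleton in blood cells, and Clec4a2 (0.989), a lectin of myeloid cells. For Tlr1 they were Sp140 (0.985), Fcgr4 (0.984), an Fc receptor of myeloid cells, and Cldn15 (0.982). For Tlr6 they were Ceacam2 (0.985), Pilra (0.981), an inhibitory receptor of myeloid cells, and Hmmr (0.98). For Tlr4 they were Iqgap2 (0.982), Ankrd28 (0.981) and Kif20b (0.977), a kinesin of dividing cells. Among the members, Tlr2 was most like Tlr13 (0.966), and with group means removed that value was 0.978. All these values come from the same 19 libraries, whose depth and marker sums differ as given here, and the part of either in the likeness was not tested.

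Some markers of neutrophils and monocytes, and all of granulocyte precursors and of dividing cells, rose in the comparisons in which the lipid receptors rose. The counts of these lists stand beside 11.3% of all genes higher and 12.4% lower in DMM mice, and 8.61% and 2.57% in naive mice. Of the neutrophil markers, 6 of 10 rose in DMM and 7 of 10 in naive mice, with summed levels of 15100 to 25400 CPM in DMM mice with AP20187 and 407 to 7910 with vehicle. In naive mice the sums were 7040 to 25100 CPM with AP20187 and 861 to 2330 with vehicle. All 5 granulocyte precursor markers and all 5 proliferation markers rose in both, though 3 of 5 proliferation markers did in naive mice without AP20187 mouse 1 or vehicle mouse 2 (4.17% and 4.6% of all genes). With mice 63 and 64 as the only DMM controls, 2 of 10 neutrophil, 5 of 5 granulocyte precursor, 1 of 5 proliferation and 1 of 7 monocyte markers rose, against 2.71% of all genes. Over the 19 alternatives in DMM mice the counts reached 9 of 10, 5 of 5, 5 of 5 and 5 of 7 in the same order. At most 17.5% of all genes rose under any of these alternatives. Monocyte markers rose for 4 of 7 and fell for 1 of 7 in DMM (3440 to 9000 CPM against 211 to 1920), and rose for 3 and fell for 1 in naive mice (1730 to 5150 against 307 to 1210). The 1 of 7 that fell in DMM mice is near the 12.4% of all genes that did. The monocyte markers that rose in DMM mice were 2 of 7 without AP20187 mouse 58 or vehicle mouse 33 (8.25% and 8.28% of all genes), and the 1 that fell in naive mice was not called without AP20187 mouse 1, 4 or 5 or vehicle mouse 1, 3 or 4. No marker of these lists was at 0 throughout a group. Their part in the rise of the receptors was not tested.

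Of the markers of macrophages, the cells the transgene is aimed at, 1 of 11 rose and 0 fell in DMM mice, where 11.3% of all genes rose, and 4 of 11 rose and 0 fell in naive mice, where 8.61% did. In naive mice the count was 0 of 11 without AP20187 mouse 3 (3.61% of all genes), 8 of 11 without vehicle mouse 3 (8.57%) and 1 of 11 without AP20187 mouse 1 (4.17%) or vehicle mouse 1, 2, 4 or 5 (4.92%, 4.6%, 9.73% and 5.83%). In DMM mice 7 of 11 rose without vehicle mouse 64 (15.5% of all genes), 3 without AP20187 mouse 61 (12.1%), 2 without AP20187 mouse 62 (8.5%), and 0 without AP20187 mouse 58 or 59 (8.25% and 10%), without vehicle mouse 33 or 34 (8.28% and 9.03%) or with mice 63 and 64 as the only controls (2.71%). Over the 19 alternatives in DMM mice the count that rose ranged from 0 to 8 of 11, where 2.71% to 17.5% of all genes rose. By DESeq2 it was 4 of 11 in DMM mice (14.5% of all genes) and 7 of 11 in naive mice (12.3%). Fitting only the naive groups gave 6 of 11 (10.3%). The summed level of the macrophage markers was 252 to 1010 CPM in DMM mice with AP20187 and 172 to 641 CPM with vehicle, and 469 to 793 against 97.9 to 479 CPM in naive mice. Of the other lists, to be read against 12.4% of all genes lower in DMM and 2.57% in naive mice (18.5% in DMM without mouse 64), sensory neuron markers fell for 6 of 11 in DMM (10 without mouse 64, 0 with mice 63 and 64 as the only controls) and 0 of 11 in naive mice (4 by limma on FPKM, 3 with the replicate block, 2 by DESeq2). Satellite glia markers fell for 1 of 7 in each, with 3 of 7 in DMM without vehicle mouse 64, 2 without AP20187 mouse 62, and 0 in naive mice without AP20187 mouse 1 or 3. Schwann cell markers fell for 2 of 5 in DMM and 0 in naive mice, and in DMM for 5 without AP20187 mouse 61, 0 without AP20187 mouse 58 or 62 or vehicle mouse 32, and 1 without AP20187 mouse 59 or 60 or vehicle mouse 34 or 64. Endothelial markers rose for 3 of 5 in DMM and 2 of 5 in naive mice. In DMM the endothelial count was 1 without AP20187 mouse 58 or 62 or vehicle mouse 32, 33, 34 or 63, and 0 with mice 63 and 64 as the only controls; in naive mice it was 5 without vehicle mouse 4, and 1 without AP20187 mouse 1, 3 or 4 or vehicle mouse 1, 2, 3 or 5. T and NK cell markers rose for 1 of 6 in each (0 in DMM with mice 63 and 64 as the only controls), and plasmacytoid dendritic cell markers for 0 of 6 and 1 of 6; both naive counts were 0 without AP20187 mouse 1 or 3 or vehicle mouse 1, 2 or 5. Skeletal muscle markers fell for 1 of 5 in DMM (0 to 5 over the 19 alternatives, with 5 without vehicle mouse 34 or 64) and rose for 2 of 5 in naive mice (0 to 5 over the 17, with 0 without AP20187 mouse 1 or 3 or vehicle mouse 1, 2, 4 or 5). The summed level of the muscle markers was 1470 to 2220 CPM in naive mice with AP20187 and 11.1 to 403 CPM with vehicle, so every treated naive library stood above the untreated ones, with a list median of 3.72 on the log2 scale. In DMM mice the sums were 15.1 to 124 CPM with AP20187 and 13.3 to 222 CPM with vehicle, apart from vehicle mouse 32 at 1710 CPM. Their parts in the results were not tested either.

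**Figure D5:**
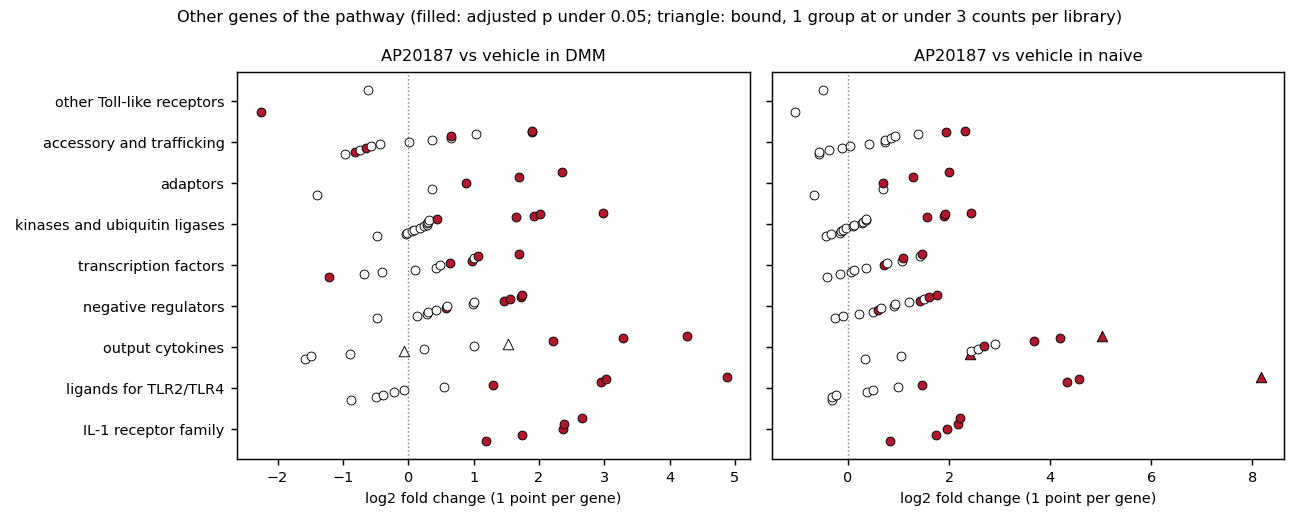
Log2 fold changes of the other genes of the pathway, 1 point per gene, in DMM (left) and naive mice (right), with filled points for an adjusted p under 0.05 (edgeR) and triangles for genes drawn at a bound because 1 group held 3 counts or fewer per library. All 5 genes of the interleukin-1 receptor family lie above 0 and are filled in both comparisons.

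The counts of the following lists stand beside 11.3% of all genes higher and 12.4% lower in DMM mice, and 8.61% higher and 2.57% lower in naive mice. Downstream of the receptors, 3 of 5 adaptors rose and 0 fell in each comparison, with list medians of 0.89 and 0.69. Myd88, the adaptor of most Toll-like receptors, was at 93.7 ± 23.5 CPM (SD, n = 5) in DMM mice with AP20187 and 18.4 ± 11.7 with vehicle, higher by 2.35 on the log2 scale (adjusted p = 0.000359 by edgeR), and at 59.0 ± 20.4 against 14.9 ± 3.27 CPM in naive mice, 1.99 (adjusted p = 0.00269). Tirap, which brings Myd88 to Tlr2 and Tlr4, rose by 1.70 and 1.28 (log2, DMM and naive). Ticam1, the adaptor of Tlr3 and Tlr4, rose by 0.89 and 0.69.

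Of 13 accessory and trafficking genes, 3 rose and 2 fell in DMM mice and 2 rose in naive mice, with medians of 0.01 and 0.73, and the 2 of 13 that fell are near the 12.4% of all genes that did. Cd14, which hands lipopolysaccharide to Tlr4, was at 23.7 ± 4.2 CPM (SD, n = 5) with AP20187 and 6.38 ± 5.00 with vehicle in DMM mice, and rose by 1.89 and 2.32 (log2, DMM and naive). Lbp, the serum carrier of lipopolysaccharide, rose by 1.90 and 1.93. Hsp90b1, a chaperone of the receptors, rose by 0.66 in DMM mice. The 2 that fell there were the endosomal protease Ctsl (-0.82) and the transporter Slc15a4 (-0.64), which lie outside the naming rule and were named after their values were seen. Ly96, the part of the Tlr4 receptor that binds lipopolysaccharide, had values of 0.65 and 0.73, and Unc93b1, which carries endosomal receptors to their place, 1.04 and 0.93, none of which passed.

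Of 16 kinases and ubiquitin ligases, 5 rose in DMM and 4 in naive mice and 0 fell, with medians of 0.28 and 0.2. Ikbke, a kinase of the interferon branch, rose by 2.98 and 2.43, Irak4, the first kinase after Myd88, by 2.01 and 1.90, and Ripk1, a kinase of the Ticam1 branch, by 1.65 and 1.56 (log2, DMM and naive). Of 11 transcription factors, 4 rose and 1 fell in DMM mice and 3 rose in naive mice, with medians of 0.49 and 0.72. Nfkb1 rose by 1.06 and Fos by 1.70 in DMM mice, where Irf5, a factor of the Myd88 branch, fell by 1.21. In naive mice Rela rose by 0.72, Relb by 1.09 and Irf7, a factor of the interferon response, by 1.47.

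Of 13 negative regulators, 5 rose in DMM and 4 in naive mice and 0 fell, with medians of 0.6 and 0.9. Nfkbiz, an atypical inhibitor protein of NF-kappa-B, rose by 1.73 and 1.42, and Irak3, a kinase-like brake on Irak signalling, by 1.56 and 1.76 (log2, DMM and naive). Nfkbia, the classical inhibitor, rose by 1.46 in DMM mice. Of 10 tested output genes, 3 rose in DMM and 5 in naive mice and 0 fell, with medians of 0.63 and 2.64 when genes near 0 counts are set to their bound. Tnf was at 8.62 ± 2.58 CPM (SD, n = 5) against 0.88 ± 0.794 in DMM mice and at 7.50 ± 2.14 (n = 4) against 0.588 ± 0.327 (n = 5) in naive mice, and Ptgs2, the inducible cyclooxygenase, rose by 2.22 and 2.69 (log2). The chemokine Cxcl2 was at 1.03 ± 0.518 against 0.0517 ± 0.0854 CPM in DMM mice.

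Among 10 genes for endogenous ligands reported for Tlr2 or Tlr4, 4 rose and 0 fell in each comparison, with medians of 0.24 and, with a gene near 0 set to its bound, 0.73. S100a8, part of calprotectin and abundant in neutrophils, was at 1130 ± 255 CPM (SD, n = 5) with AP20187 against 139 ± 166 with vehicle in DMM mice, and rose by 3.02 and 4.58 (log2, DMM and naive). S100a9, its partner, rose by 2.95 and 4.34, and the matrix proteoglycan Bgn, outside the naming rule, by 1.30 and 1.47. S100a8 and S100a9 are themselves neutrophil genes, and the levels of that list are given above. Of the 5 related receptors of the interleukin-1 family, which share the signalling domain with the Toll-like receptors, 5 rose in each comparison, with medians of 2.37 and 1.96. In naive mice 2 of 5 passed without AP20187 mouse 3 or vehicle mouse 2, and 3 of 5 without AP20187 mouse 1. Il1r1, the receptor of interleukin-1, was at 43.8 ± 9.33 against 13.1 ± 1.34 CPM in DMM mice and at 48.2 ± 12.5 against 14.4 ± 3.96 CPM in naive mice, a log2 fold change of 1.74 in both. No gene of these lists passed in either comparison of DMM with naive mice or in the interaction.

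The counts of these lists depended on single mice in both comparisons. With mice 63 and 64 as the only DMM controls, the genes that rose were 1 of 5 adaptors, 1 of 13 accessory genes, 2 of 16 kinases and ubiquitin ligases, 0 of 11 transcription factors, 1 of 13 negative regulators, 2 of 10 output genes, 1 of 10 ligand genes and 3 of 5 interleukin-1 family receptors. With mice 32 to 34 as the only controls they were 4, 6, 6, 7, 8, 3, 5 and 5 in the same order. The shares of all tested genes that rose were 2.71% and 17.5% under these settings. With 1 DMM mouse left out, the transcription factors that rose went from 4 to 2 without AP20187 mouse 58 or 62 or vehicle mouse 32, 33 or 34, where 8.25%, 8.5%, 8.64%, 8.28% and 9.03% of all genes rose, and to 7 without vehicle mouse 64 (15.5%), where the negative regulators went from 5 to 8. In naive mice, leaving out AP20187 mouse 1 or 3 or vehicle mouse 1 or 2 took the adaptors from 3 to 1. The transcription factors went from 3 to 0 without AP20187 mouse 1 or 3 or vehicle mouse 2 and to 1 without vehicle mouse 1 or 5, and the output genes from 5 to 3 without vehicle mouse 1 or 2. The share of all tested genes that rose went from 8.61% to 4.17% and 3.61% without AP20187 mouse 1 and 3, and to 4.92%, 4.6% and 5.83% without vehicle mouse 1, 2 and 5. All these recalculations of lists were chosen after the data were seen.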

How the data were processed

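Bulk RNA-seq of 19 mice was analysed. The deposited files hold raw gene counts as whole numbers and, in a second table by the authors, FPKM, which divides by gene length and library depth. Reads were handled with cutadapt, HISAT2 and StringTie on GRCm39, per the submitters' processing notes; versions are not given in the sources used here. Counts of the 10 genes were equal in both tables (10 of 10). The counts were fitted with edgeR 4.0.16 in R 4.3.3 (TMM, filterByExpr with a minimum count of 10, 4 group means, 15 residual degrees of freedom), and the two-sided quasi-likelihood F test was adjusted by Benjamini-Hochberg over 22778 genes at a threshold of 0.05. SE is the fitted log2 fold change divided by the square root of F. Alternatives used DESeq2 1.42.0, limma 3.58.1 on log2 FPKM, other scaling and filters, and left-out mice. The self-test on simulated data for AP20187 against vehicle in DMM recovered 29% of 100 genes changed by a log2 of 1 and 70% of 100 changed by a log2 of 2, over 21979 tested genes. It gave 4 false calls. Only these genes were changed, while 5410 genes were called in the data. With fewer changed genes the Benjamini-Hochberg adjustment is stricter, so these shares do not measure recovery in the data. In the pathway lists, the genes with values were named by a rule: up to 3 called members with the smallest adjusted p for each list and comparison, plus Cd14, Ly96, Unc93b1 and Myd88; those outside it were chosen after their values were seen. The members and lists were chosen with earlier results of these data known.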

Additional observations from a re-analysis of the deposited data

Results flagged for a closer look

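Of 40 sets of libraries (10 genes in 4 groups), 2 held a library far from the others of its group, and chance alone gives about 1 in 20. Tlr6 was at 3.59 CPM in naive vehicle mouse 3, the highest of 5, where the gap to the next library was 0.749 of the range. Tlr7 was at 22.5 CPM in naive AP20187 mouse 3, the highest of 4, where the gap was 0.847 of the range.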

How the results depend on the processing

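Over 980 recalculated values of the 10 genes in 5 comparisons, 941 kept their side of the threshold, 30 lost a call, 9 gained one and 0 called values changed sign; the cause was not tested. Tlr1 and Tlr4 kept their calls under all 19 alternatives in DMM and all 17 in naive mice. Members called in AP20187 against vehicle in DMM numbered 7, or 5 to 8 with 1 mouse left out, and 3 with mice 63 and 64 as the only controls. In naive mice 5 were called, or 4 to 5 with 1 mouse left out. For DMM against naive, 1 member was called with vehicle when mice 63 and 64 were the only DMM mice, and 1 with AP20187 on log2(FPKM + 1). Over all genes, the calls in DMM (5410) were 1156 with mice 63 and 64 and 8450 with mice 32 to 34 as controls, and 3212 to 7677 with 1 mouse left out, the low values without AP20187 mouse 58 (3212), vehicle mouse 32 (3419) and vehicle mouse 33 (3407). In naive mice (2548) they were 4356 by DESeq2, 3958 and 4063 by limma on FPKM with a pseudocount of 1 and 0.1, and 994 to 3452 with 1 mouse left out, the low values without AP20187 mice 1 (1191) and 3 (994) and vehicle mice 1 (1368), 2 (1292) and 5 (1566). For DMM against naive with vehicle (0) there were 541 with mice 63 and 64. With AP20187 (160) there were 73 without the filter, 1109 by DESeq2, 1148 and 908 on FPKM and 43 to 269 with 1 mouse left out. The interaction (26) gave 13 without the filter, 223 by DESeq2, 52 on log2(FPKM + 1), 90 with mice 63 and 64 and 12 to 57 with 1 mouse left out. The share of calls that were higher in naive mice was 77.0%, but 62.9% without TMM, 64.3% by DESeq2 and 40.3% and 40.4% on FPKM; for DMM against naive with AP20187 it was 37.5%, but 59.0%, 56.6%, 82.4% and 79.5% under the same alternatives and 13.5% with only the groups compared, which moved that share in DMM from 47.7% to 58.4%. The median of all genes was -0.07 in naive mice and -0.21 on log2(FPKM + 0.1). With the mouse number as a replicate block, fitted on the naive groups alone, 6 members and 2310 genes were called, with Tlr13 among them (1.19, adjusted p = 0.0424); the naive groups alone without the block also gave 6 members, with Tlr13 (1.21, adjusted p = 0.0468), and 2693 genes; the numbers were not taken as pairs, since the same-number correlations were 0.023, 0.301, -0.082 and 0.183 and only number 3 correlated best with its own.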
